A study of Homo sapiens with 14 samples.

Results

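A pair of RNA editors aimed at the EZH2 transcript in HEK293T cells, dCas13d-ADAR and REPAIR.t1, were compared at every position that their libraries listed with an A-to-G change. The members were all sites of the 2 dCas13d-ADAR EZH2 libraries and the 2 REPAIR.t1 EZH2_A22 libraries, matched by chromosome and position, with no threshold of any kind. They numbered 12443 different sites, of 26172 in the 14 libraries of the series. HEK293T is an established human embryonic kidney line. The series holds 7 groups of 2 libraries of polyadenylated RNA, in which editors of the REPAIR type, dCas13d-ADAR or a further editor, DECOR, were given a guide. The 4 libraries compared here share the cell line, the library kit and the read lengths (25 and 97 cycles), and all carry a guide named for EZH2. They differ in the editor and also in the guide's name, since the A22 of the REPAIR.t1 guide is not explained in the labels and is missing from the dCas13d-ADAR guide's name. Dose, time and construct are not given in the labels, nor whether replicates came from separate cultures. P-values below therefore judge differences only against the spread between libraries, which may be technical.

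ADAR enzymes deaminate adenosine in double-stranded RNA to inosine, which sequencing reads as guanosine. REPAIR editors join an ADAR deaminase domain to a catalytically inactive Cas13 protein, and the guide RNA brings the deaminase to its target and forms the duplex with it. Such a deaminase can also act on other transcripts that it meets in the cell, at sites with no relation to the guide. EZH2, the transcript that the guides are named for, encodes the histone methyltransferase of the Polycomb repressive complex.

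The sites below are positions in the whole transcriptome and not the guide's target. Each is given by its chromosome and position in hg19. No gene, exon or UTR is named for them and no sequence is shown, because no annotation or genome of that build was used here. The target site on the EZH2 transcript was not analysed here. The A-to-G rate of a site is called its level and runs from 0 to 1. The lists hold neither read counts nor coverage nor strand, so the depth behind every level is unknown. A site missing from a library may have been unedited, too low to list or too thinly covered, and these cannot be told apart. The dCas13d-ADAR and REPAIR.t1 libraries with the NT guide, which share no library with the EZH2 comparison, served as a second look at each difference between the editors. A library without an editor was not used here, so a listed position that owed nothing to the introduced editor could not be recognised.

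dCas13d-ADAR listed more sites than REPAIR.t1 with the EZH2 guides. The REPAIR.t1 libraries listed 4764 and 4784 sites, and the dCas13d-ADAR libraries 5834 and 5793. The means were 4774 ± 14.1 and 5813.5 ± 29 (SD, n = 2), a ratio of 1.22. The replicates differed by 20 and 41 sites and the editors' means by 1039.5, so the libraries did not overlap. The exact two-sided permutation test gave p = 0.333, which is the smallest p that 2 libraries against 2 allow. With the NT guide the ratio was 1.28, from 4683 and 4356 sites in REPAIR.t1 and 5730 and 5795 in dCas13d-ADAR.

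The typical level was nearly the same in both editors and the excess of dCas13d-ADAR grew toward high levels. The median level was 0.261 and 0.263 in REPAIR.t1 and 0.267 and 0.263 in dCas13d-ADAR, and these ranges met. Levels of 0.5 or more were reached by 4.74% and 5.08% of the REPAIR.t1 sites and 6.36% and 6.51% of the dCas13d-ADAR sites, with no overlap (exact permutation p = 0.333). At 0.6 or more there were 52 and 58 sites in REPAIR.t1 and 104 and 131 in dCas13d-ADAR. By level, dCas13d-ADAR listed 1.16 to 1.22 times as many sites as REPAIR.t1 in each class below 0.4. The ratio was 1.32 from 0.4 to 0.5, 1.43 from 0.5 to 0.6 and 2.40 from 0.6 to 0.7. Above 0.7, where the libraries held between 15 and 40 sites each, it was 1.68. In the NT libraries the same ratios were 1.53, 1.97, 2.30 and 4.72, and the medians no longer met (0.25 in both REPAIR.t1 libraries, 0.267 and 0.269 in dCas13d-ADAR).

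**Figure D1:**
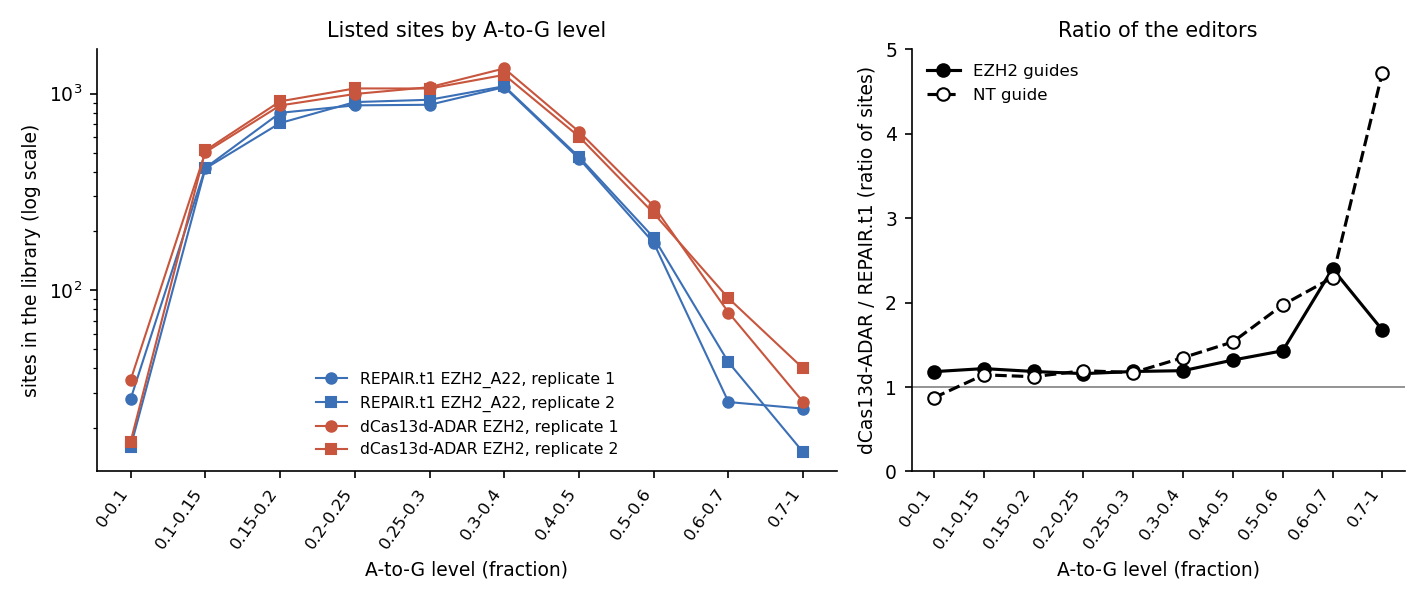
Left, number of listed sites (log scale) by A-to-G level in each of the 4 EZH2 libraries, with a circle for replicate 1 and a square for replicate 2. Right, ratio of the mean site numbers of dCas13d-ADAR over REPAIR.t1 in the same level classes, with the EZH2 guides (filled) and the NT guide (open). The EZH2 ratio stays between 1.16 and 1.22 below a level of 0.4 and reaches 2.40 from 0.6 to 0.7.

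Most sites were seen in few libraries. Of the 12443 sites, 7285 (58.5%) stood in 1 library only and 1101 (8.85%) in all 4. Both editors listed 3712 sites, which were 50.1% of the 7409 sites of REPAIR.t1 and 42.4% of the 8746 sites of dCas13d-ADAR. The remaining 3697 sites of REPAIR.t1 and 5034 of dCas13d-ADAR were listed by that editor alone. Overlap was also limited between single libraries. The REPAIR.t1 replicates had 2139 sites in common, 44.9% of the shorter list, and the dCas13d-ADAR replicates 2881, or 49.7%. Between editors, each pair of libraries shared 2052 to 2124 sites, which were 42.9% to 44.6% of the REPAIR.t1 list and 35.4% to 36.7% of the dCas13d-ADAR list.

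A REPAIR.t1 site was therefore found again in a dCas13d-ADAR library about as often as in the other REPAIR.t1 library. Of REPAIR.t1 sites at a level under 0.2, 37.8% recurred in the replicate and 40.2% in a dCas13d-ADAR library, each as a mean over libraries. At levels of 0.3 to 0.4 these shares were 48.2% and 45.2%, and at 0.6 or more 66.5% and 71.5%. The reverse did not hold. Sites of dCas13d-ADAR under 0.2 recurred in the replicate in 40.9% and in a REPAIR.t1 library in 27%. From 0.3 to 0.4 the shares were 52.4% and 39%, and at 0.6 or more 76% and 65.7%. The dCas13d-ADAR lists were the longer ones, and the part of list length in these shares was not tested.

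At the sites that all 4 libraries listed, the level was higher with dCas13d-ADAR. The mean level over the 1101 sites was 0.311 and 0.307 in the REPAIR.t1 libraries and 0.340 and 0.343 in the dCas13d-ADAR libraries. The difference was 0.0322, larger than the 0.00465 between the REPAIR.t1 replicates and the 0.0029 between the dCas13d-ADAR replicates (exact permutation p = 0.333, the smallest possible). dCas13d-ADAR had the higher mean at 714 sites (64.9%) and the lower at 387. The difference was 0.0143 at the 115 sites with a mean level under 0.2, 0.0266 from 0.2 to 0.3, 0.0268 from 0.3 to 0.4, 0.0498 from 0.4 to 0.5, and 0.074 at the 71 sites at 0.5 or more. Over the 1046 sites in all 4 NT libraries the difference was 0.0451, with 718 sites higher. These sites were chosen for being listed everywhere, so sites that an editor left below the listing level are missing from this mean.

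Single sites were far noisier than the mean. At the 1101 sites, replicates of REPAIR.t1 differed by 0.0852 on average in absolute value and replicates of dCas13d-ADAR by 0.0908, against 0.1 between a library of each editor. limma, fitted to log2 odds of the level with Benjamini-Hochberg adjustment, called 0 of 1101 sites (0%) at an adjusted p under 0.05. The smallest adjusted p was 0.185, and 114 sites had an unadjusted p under 0.05. In simulated data of this size, 100 sites were changed by 1 log2 unit and 100 by 2 units. The same fit recovered 12% and 88% of these, with 3 false calls, so differences of 1 unit would mostly be missed. So many changed sites ease the adjustment, and fewer were not simulated. Differences of 2 units may therefore be missed more often than this in the real data. Over the 609 of these sites that the 4 NT libraries also listed, the same fit of the 4 EZH2 libraries called 2, chr22:35796553 and chr19:4657731 (limma adjusted p = 0.0491 for both). That choice of sites was made after the data had been seen. Both dCas13d-ADAR libraries lay above both REPAIR.t1 libraries at 314 sites (28.5%) and below both at 124 sites (11.3%). Each of these orders is 1 of the 6 arrangements of 2 libraries against 2, so it can often arise without a difference between the editors.

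**Figure D2:**
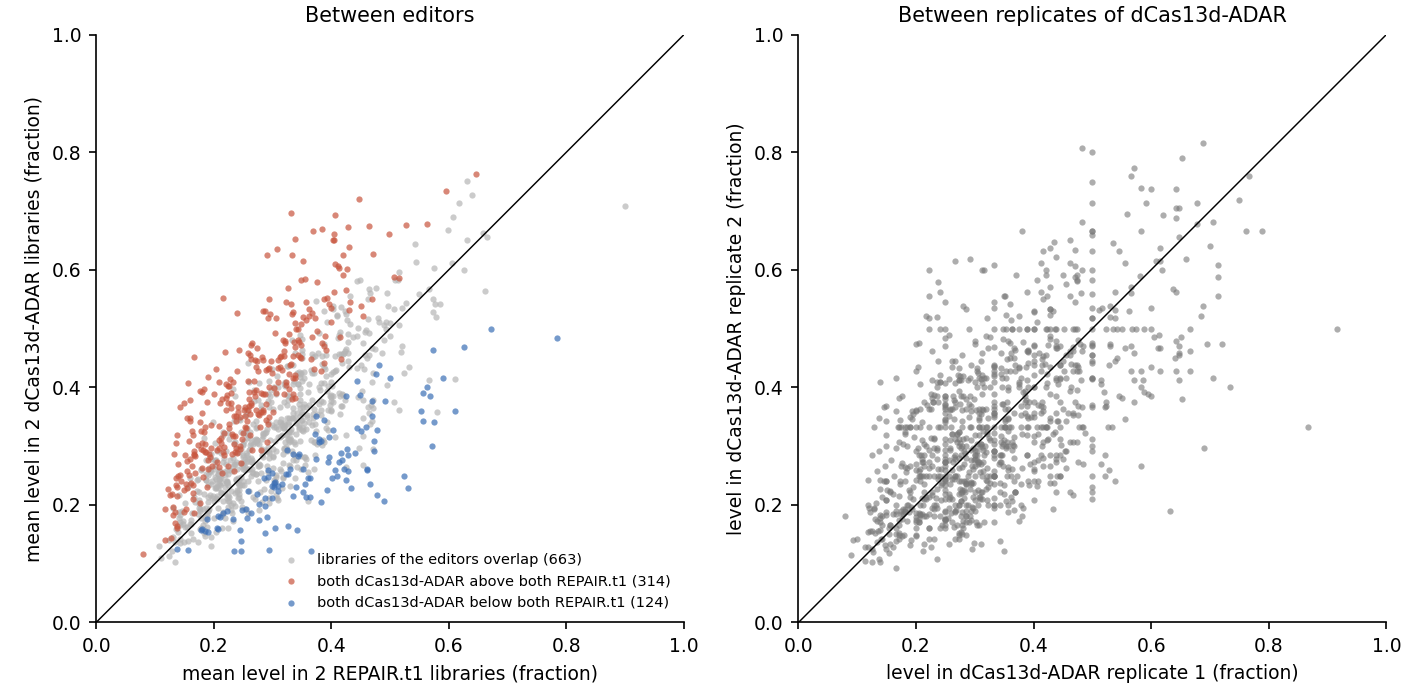
Levels at the 1101 sites listed in all 4 EZH2 libraries, each point a site and the line marking equal levels. Left, mean of the 2 dCas13d-ADAR libraries against the mean of the 2 REPAIR.t1 libraries, coloured where the libraries of the editors did not overlap (314 sites above, 124 below). Right, replicate 2 against replicate 1 of dCas13d-ADAR, each a single library, so its spread is not directly comparable with that of the means at left. Between single libraries the mean absolute difference was 0.1 between the editors and 0.0908 between these replicates.

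Most sites with higher levels in dCas13d-ADAR were higher in the NT libraries too, and a smaller part of those with lower levels were lower there. Of the 1101 sites, 609 were also listed in all 4 NT libraries, and dCas13d-ADAR was higher there at 455 of them (74.7%). Of the 314 sites above, 186 stood in all NT libraries. dCas13d-ADAR NT had the higher mean at 162 (87.1%) of these, and both its libraries lay above both of REPAIR.t1 NT at 102 (54.8%, against 41.4% of all 609). Of the 124 sites below, 64 stood in all NT libraries. Among them dCas13d-ADAR NT was lower at 28 (43.8%, against 25.3% of all 609), and both its libraries lay below both of REPAIR.t1 NT at 16 (25%, against 9.03%). The mean NT difference of these 64 sites was 0.0054, against 0.0601 over all 609. Across the 609 sites the EZH2 and NT differences had a Pearson r of 0.338, a description over sites that share their libraries. The test of whether the difference between editors itself depended on the guide called 0 of 609 sites (0%) in limma, with 41 sites at an unadjusted p under 0.05 and a smallest adjusted p of 0.204. In simulated data, 100 of the 609 sites were changed by 1 log2 unit and 100 by 2 units. This test recovered 10% and 41% of these, with 3 false calls, so most differences of these sizes would be missed. With fewer changed sites, which were not simulated, the adjustment would be stricter.

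The site with the largest excess of dCas13d-ADAR was chr22:35796553. Its level was 0.385 and 0.28 in the REPAIR.t1 libraries and 0.679 and 0.714 in the dCas13d-ADAR libraries. The difference was 0.364, or 2.17 ± 0.48 log2 odds (SE), with a limma adjusted p of 0.185. With the NT guide the levels were 0.353 and 0.429 in REPAIR.t1 and 0.6 and 0.522 in dCas13d-ADAR, again without overlap. A further listed site lay 90 bases before it, chr22:35796463. That site was missing from both REPAIR.t1 EZH2_A22 libraries and at 0.282 and 0.441 in the dCas13d-ADAR EZH2 libraries. With the NT guide it stood at 0.219 and 0.233 in REPAIR.t1 and 0.593 and 0.606 in dCas13d-ADAR, a limma call of that comparison (adjusted p = 0.0321). It was looked up after its values were seen.

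Several other sites had both dCas13d-ADAR levels well above both of REPAIR.t1. At chr19:4657731 REPAIR.t1 had 0.231 and 0.2 and dCas13d-ADAR 0.647 and 0.458. At chr17:26674484 the levels were 0.348 and 0.235 against 0.583 and 0.667. At chr11:62384095 they were 0.316 and 0.3 against 0.714 and 0.556, and at chr19:19014207 they were 0.15 and 0.184 against 0.463 and 0.439. In these 4 sites the replicates of an editor stood closer to each other than to any library of the other editor. The 10 largest such differences ran from 0.286 to 0.364, with limma adjusted p of 0.185 to 0.245. dCas13d-ADAR NT was higher at 9 of these 10, against 74.7% of the 609 sites in all 8 libraries. The exception was chr19:49469892, where REPAIR.t1 had 0.267 and 0.412 and dCas13d-ADAR 0.591 and 0.714 with the EZH2 guides. There the NT levels were 0.641 and 0.476 against 0.548 and 0.511. Of the 10, chr17:26674484, chr6:34845913 and chr17:2593475 had a single NT library for at least 1 editor, so they are not among the 609.

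Lower levels with dCas13d-ADAR were fewer and smaller. At chr1:156564536 the REPAIR.t1 libraries had 0.56 and 0.5 and the dCas13d-ADAR libraries 0.276 and 0.182, the largest difference of this direction (-0.301, limma adjusted p = 0.185). The NT levels there were 0.357 and 0.333 in REPAIR.t1 and 0.167 in the single dCas13d-ADAR NT library that listed it. At chr3:128888830 REPAIR.t1 had 0.349 and 0.382 and dCas13d-ADAR 0.113 and 0.129. At chr11:34101308 the levels were 0.472 and 0.458 against 0.273 and 0.2, and with the NT guide 0.462 and 0.531 against 0.308 and 0.259. This order was thus alike with both guides. At chr7:27868342 REPAIR.t1 had 0.476 and 0.571 with the EZH2_A22 guide and 0.5 in both NT libraries. dCas13d-ADAR had 0.278 and 0.222 with its EZH2 guide, and its NT libraries did not list the site. Of the 10 largest differences of this direction, 7 had levels of both editors with the NT guide. dCas13d-ADAR was lower at 5 of those 7, against 25.3% of the 609 sites in all 8 libraries. Of the 7, chr1:156564536 and chr3:128888830 had a single dCas13d-ADAR NT library, so they are not among the 609.

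Among the 1101 sites that all 4 libraries listed, the 10 with the highest mean level ran from 0.641 to 0.804. All 10 were listed in every NT library of both editors too, against 609 (55.3%) of the 1101. Sites of a single editor, described below, reached similar means. At the first, chr3:195778213, REPAIR.t1 had 0.917 and 0.882 and dCas13d-ADAR 0.917 and 0.5, so a single dCas13d-ADAR library set its difference of -0.191. At chr1:156209533 the levels were 0.655 and 0.636 in REPAIR.t1 and 0.767 and 0.76 in dCas13d-ADAR, without overlap. At chr15:79614895 the REPAIR.t1 replicates were themselves 0.455 and 0.806, wider apart than the editors (0.688 and 0.815 in dCas13d-ADAR). dCas13d-ADAR had the higher mean at 8 of the 10, against 64.9% of all 1101 sites. None of the 10 passed limma (adjusted p from 0.518 to 0.998). REPAIRv2, another REPAIR editor of the series, also listed 7 of the 10 in at least 1 of its libraries, against 119 (10.8%) of the 1101 sites in all 4 libraries.

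Sites in both libraries of an editor and neither of the other numbered 931 for dCas13d-ADAR and 515 for REPAIR.t1. Their median levels were 0.256 and 0.262, under the 0.313 of the sites in all 4 libraries. Each set was found more often in the NT libraries of its own editor, but not there alone. Of the 931, 662 (71.1%) stood in at least 1 dCas13d-ADAR NT library and 324 (34.8%) in at least 1 REPAIR.t1 NT library. Of the 515, 339 (65.8%) stood in a REPAIR.t1 NT library and 178 (34.6%) in a dCas13d-ADAR NT library. The full pattern, both libraries of the same editor and neither of the other, recurred with the NT guide at 178 of the 931 and 79 of the 515. The opposite pattern appeared at 10 and 15 sites. The same shares over all 12443 sites were not computed, so these NT counts have no background beside them. The dCas13d-ADAR NT lists were also longer than those of REPAIR.t1 NT. DECOR, whose reads were longer (62 and 160 cycles), listed 3.44% of the 931 and 1.17% of the 515, against 2.19% of all 12443 sites and 4.54% of those in all 4 libraries.

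Among the dCas13d-ADAR sites, chr2:241654417 had the highest mean, at 0.571 and 0.9, and no NT library of either editor listed it. At chr10:121437104 the levels were 0.739 and 0.611 with the EZH2 guide and 0.533 and 0.562 with the NT guide, and no REPAIR.t1 library of either guide listed it. chr22:32887098 had 0.571 and 0.611, yet REPAIR.t1 NT listed it at 0.389 and 0.294, a level well above the lowest in any list. Among the REPAIR.t1 sites, chr9:139818310 had the highest mean, at 0.545 and 0.8. Both dCas13d-ADAR NT libraries listed it, at 0.643 and 0.8. chr11:63526744 had 0.5 and 0.474 with the EZH2_A22 guide and 0.3 and 0.333 with the NT guide, and was in no dCas13d-ADAR library. At chr22:32887098 and chr9:139818310, an editor whose EZH2 libraries both lacked the site thus listed it in both NT libraries.

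The additional sites of dCas13d-ADAR were not spread evenly over the chromosomes. Chromosome 19 held 402 and 398 sites in the REPAIR.t1 libraries and 750 and 715 in the dCas13d-ADAR libraries, a ratio of 1.83 against 1.22 overall. This was 8.44% and 8.32% of the REPAIR.t1 lists and 12.9% and 12.3% of the dCas13d-ADAR lists. Chromosome 19 alone gave 32% of the difference in site numbers, and chromosomes 11, 16, 17, 19 and 22, grouped after their values were seen, gave 74.9%. At the other end, chromosome 13 had 42 and 36 sites in REPAIR.t1 and 23 and 32 in dCas13d-ADAR, and chromosome 10 had 162 and 173 against 145 and 155. dCas13d-ADAR listed more sites on 16 of 23 chromosomes and fewer on 2, 4, 6, 10, 13, 15 and 18. With the NT guide it listed more on 20 chromosomes, and 3 of these 7 (2, 10 and 18) were again below REPAIR.t1. Chromosomes 4, 6, 13 and 15 then had ratios of 1.14, 1.06, 1.08 and 1.04.

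limma, fitted to the log2 share of each library's sites per chromosome after the data had been seen, called 13 of 23 chromosomes (56.5%), with 4 higher and 9 lower in dCas13d-ADAR. Shares add to 100%, so a larger share of chromosome 19 lowers the others. Chromosome 19 had a log2 ratio of shares of 0.59 ± 0.072 (SE; adjusted p = 0.00107). The exact permutation test of its shares gave p = 0.333, the smallest possible, so no chromosome could pass that test. Chromosomes 22 (0.37 ± 0.080, adjusted p = 0.00666), 16 (0.26) and 17 (0.22) were the others with a higher share. When a library was left out, their values ran from 0.30 to 0.44, 0.23 to 0.30 and 0.15 to 0.29. With the NT guide chromosomes 22 and 16 had 0.54 and 0.52, but chromosome 17 had 0.084 and did not pass (limma adjusted p = 0.321). The lower shares were led by chromosomes 13 (-0.80 ± 0.15, adjusted p = 0.00418), 18 (-0.56) and 10 (-0.44). Chromosome 13 rested on few sites, 42 and 36 in REPAIR.t1 and 23 and 32 in dCas13d-ADAR. Its value ran from -1.05 to -0.56 when a library was left out, and it was -0.23 with the NT guide. Chromosome 18 also rested on few sites, 29 and 44 in REPAIR.t1 and 29 and 30 in dCas13d-ADAR. Its value ran from -0.86 to -0.26 when a library was left out, and it passed in 3 of those 4 fits. Without division by the total, 11 chromosomes passed, 10 higher and 1 lower. The count depended on single libraries. It was 8 without REPAIR.t1 replicate 1, 5 without dCas13d-ADAR replicate 2 and 3 without dCas13d-ADAR replicate 1, and chromosomes 19 and 13 passed in all 4 such fits. The NT libraries, fitted the same way, called 17 chromosomes. Chromosome 19 had 417 and 341 sites in REPAIR.t1 NT and 753 and 736 in dCas13d-ADAR NT (log2 ratio of shares 0.63 ± 0.078). The direction was alike with both guides in 20 of 23 chromosomes, and 3 higher and 8 lower chromosomes passed with both.

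**Figure D3:**
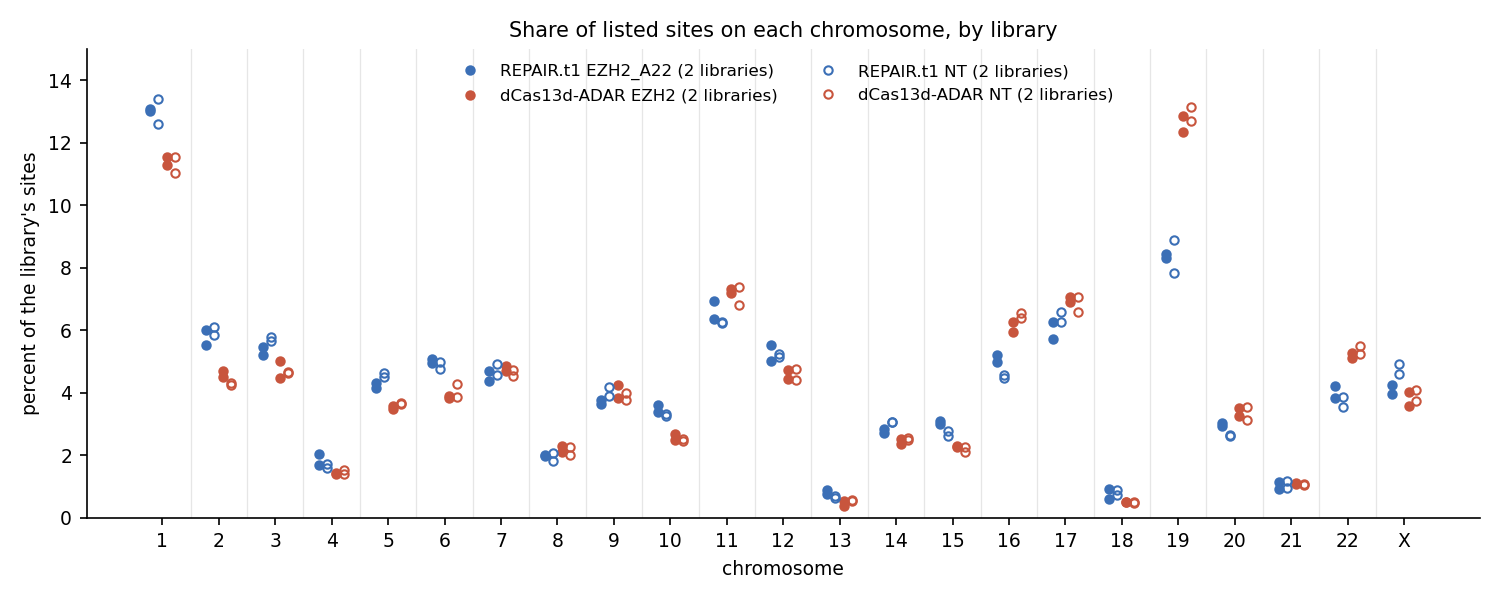
Percent of each library's listed sites on each chromosome, a point per library, with the EZH2 guides filled and the NT guide open. On chromosome 19 the dCas13d-ADAR EZH2 libraries stand at 12.9% and 12.3% and the REPAIR.t1 EZH2_A22 libraries at 8.44% and 8.32%, the widest gap of any chromosome, and the NT libraries lie in the same order.

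The higher levels of dCas13d-ADAR at shared sites were seen on most chromosomes as well. At the 139 sites of chromosome 19 in all 4 libraries the mean level was 0.333 with dCas13d-ADAR and 0.282 with REPAIR.t1, and 103 (74.1%) were higher. At the 52 such sites of chromosome 16 the means were 0.388 and 0.320, with 43 (82.7%) higher. At the 136 of chromosome 1 they were 0.338 and 0.313, with 81 (59.6%) higher, and at the 44 of chromosome 2 they were 0.363 and 0.355, with 23 (52.3%) higher. For comparison, 64.9% of all 1101 sites were higher.

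The excess was also described in windows of 100 kb. The 259 windows with at least 20 sites over the 4 libraries held 37.1% of all listed sites. Both dCas13d-ADAR libraries listed more sites than both REPAIR.t1 libraries in 130 windows (50.2%) and fewer than both in 20 (7.72%). The minimum was summed over these same 4 libraries, and the dCas13d-ADAR lists were the longer ones. A window rich in dCas13d-ADAR sites thus entered more easily, so part of this split may follow from the choice of windows. These counts were described and not tested. Of the 130 windows, 90 (69.2%) had the same order without overlap in the NT libraries, against 52.1% of all 259. Of the 20, 9 (45%) did, against 7.72% of all. None of the 20 lay on chromosome 19, which held 42 of the 259 windows.

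**Figure D4:**
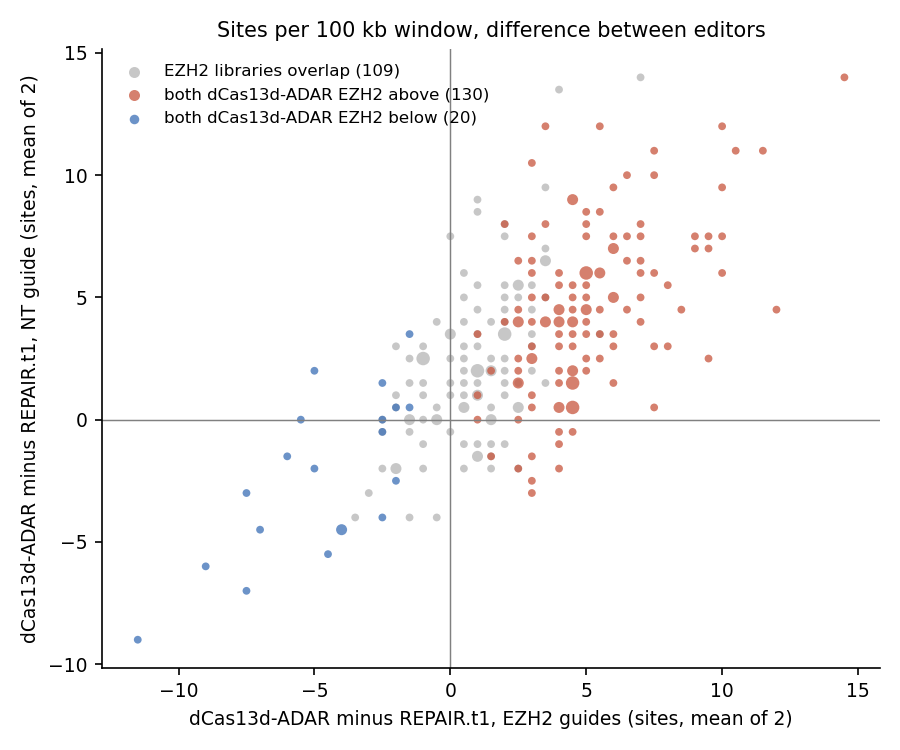
Difference in listed sites per 100 kb window, dCas13d-ADAR minus REPAIR.t1 (mean of 2 libraries each), with the NT guide against the EZH2 guides, for 259 windows. Larger points stand for several windows at the same values. Of the 130 windows with more sites in both dCas13d-ADAR EZH2 libraries, 119 (91.5%) lie above 0 with the NT guide too, against 78.4% of all 259.

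The window with the largest excess was chr8:145100001-145200000. It held 3 and 5 sites in the REPAIR.t1 libraries and 17 and 20 in the dCas13d-ADAR libraries, and with the NT guide 4 and 4 against 17 and 19. Of its 30 positions, 24 were listed by dCas13d-ADAR alone and 1 by REPAIR.t1 alone. In chr3:127300001-127400000 the counts were 6 and 0 against 14 and 15, and no position stood in all 4 libraries. In chr19:51300001-51400000 they were 4 and 3 against 14 and 14. There all 20 positions fell within 1.10 kb, chr19:51301060-51302157, 15 of them were listed by dCas13d-ADAR alone and none by REPAIR.t1 alone. The NT guide gave 5 and 2 against 14 and 15 in that window. dCas13d-ADAR thus listed many neighbouring positions in these patches where REPAIR.t1 listed few.

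Opposite windows were fewer, but some were as marked. In chr10:102100001-102200000 the REPAIR.t1 libraries listed 21 and 10 sites and the dCas13d-ADAR libraries 4 and 4, and with the NT guide 9 and 16 against 3 and 4. Its 24 positions lay within 9.42 kb, and 19 were listed by REPAIR.t1 alone and none by dCas13d-ADAR alone. In chr1:115200001-115300000 the counts were 12 and 9 against 1 and 2, and with the NT guide 9 and 8 against 3 and 2. In chr2:10500001-10600000 they were 8 and 10 against 3 and 1, and with the NT guide 4 and 7 against 1 and 1. The amount of each transcript in each library was not measured here, so editing and RNA amount cannot be told apart in these windows. Of the 10 windows with the largest excess, 9 kept the order without overlap in the NT libraries, against 52.1% of all 259 windows. Of the 10 with the largest deficit 5 did, against 7.72% of all 259.

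The spacing of neighbouring sites also differed between the editors. A site with another listed site within 50 bases made up 22.1% and 22% of the REPAIR.t1 lists and 24.7% and 25.6% of the dCas13d-ADAR lists (exact permutation p = 0.333). The order turned at the shortest distances. Within 10 bases the share was lower in dCas13d-ADAR, by 0.649 percentage points. Directly adjacent positions numbered 73 and 68 in REPAIR.t1 and 67 and 58 in dCas13d-ADAR, or 1.53% and 1.42% of sites against 1.15% and 1%, a ratio of shares of 0.728. In the NT libraries this ratio was 0.681, from 1.49% and 1.54% against 1.08% and 0.984%.

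At larger distances dCas13d-ADAR had the denser lists. Neighbours 9 to 12 bases apart numbered 46 and 41 in REPAIR.t1 and 87 and 81 in dCas13d-ADAR, a ratio of shares of 1.59 (1.42 with the NT guide). At 13 to 30 bases they numbered 146 and 163 against 264 and 273, a ratio of 1.43 (1.58 with the NT guide). At 3 to 8 bases the shares overlapped, at 3.17% and 3.39% in REPAIR.t1 and 2.98% and 3.30% in dCas13d-ADAR. Every other distance class up to 200 bases was without overlap between the editors, with p = 0.333 in the exact permutation test, the smallest possible. The dCas13d-ADAR lists were also the longer ones, and the part of list length in these distances was not tested. These distance classes were chosen after the data had been seen.

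**Figure D5:**
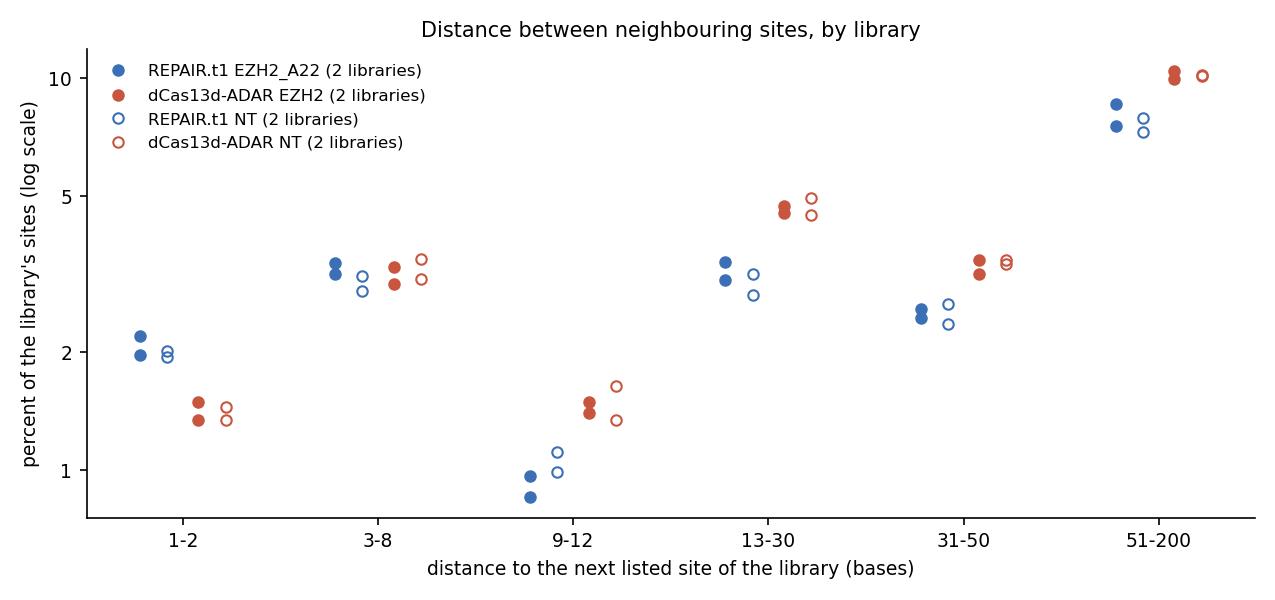
Percent of each library's sites (log scale) whose next listed site lies at the given distance in bases, a point per library, with the EZH2 guides filled and the NT guide open. REPAIR.t1 is higher at 1 to 2 bases, the editors overlap at 3 to 8 bases, and dCas13d-ADAR is higher from 9 to 12 bases up to 51 to 200 bases.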

How the data were processed

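Per the file headers, the authors deposited 1 list per library, giving chromosome, position and A-to-G rate, a fraction. The submitters' processing notes name cutadapt and STAR 2.6.1b and the builds hg19 and GRCh37. Which caller and thresholds made the lists is not given in the sources used here. The lowest level in any list was 0.0597. Sites were keyed by chromosome and position. Levels at sites in all 4 libraries were tested with limma 3.58.1 (R 4.3.3) as log2((level + 0.01)/(1 - level + 0.01)), and summaries per library by two-sided exact permutation over 6 arrangements, with Python 3.11.15, numpy 2.4.6 and pandas 2.3.3. Adjusted p under 0.05 was the threshold. The limma fits were tested on simulated data. Named sites were the 10 largest differences in each direction without overlap, the 10 highest mean levels, the 10 smallest p-values, and for each editor the 10 highest levels among sites of its libraries alone. Comparisons, members and lists were chosen with earlier results of these data known. Gene lists were not used, since no annotation of the build was at hand. Same-numbered libraries were not paired (r of their deviations 0.014 over 1101 sites). Alternatives changed the level minimum, site choice, scale, spread, distance and libraries.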

Additional observations from a re-analysis of the deposited data

Results flagged for a closer look

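Among the named sites, 2 had an order that turned with the guide. Both dCas13d-ADAR libraries lay below both REPAIR.t1 libraries with the EZH2 guides and above both with the NT guide. At chr2:70523375 the EZH2 levels were 0.472 and 0.484 in REPAIR.t1 and 0.233 and 0.2 in dCas13d-ADAR. With the NT guide they were 0.333 and 0.357 against 0.4 and 0.452, a difference of 0.0806. At chr17:47010631 the EZH2 levels were 0.65 and 0.5 against 0.407 and 0.276, and the NT levels 0.458 and 0.393 against 0.593 and 0.516, a difference of 0.129. The test of the difference between guides did not pass at either site (limma adjusted p = 0.473 and 0.518). Of the 64 sites with lower dCas13d-ADAR levels that stood in all 8 libraries, 21 (32.8%) lay above without overlap with the NT guide, against 41.4% of all 609 sites in the 8 libraries. Of the 186 with higher dCas13d-ADAR levels, 10 (5.38%) lay below, against 9.03% of all 609.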

How the results depend on the processing

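Of 122 alternative computations over 14 results, 106 kept the direction and the side of the threshold, stayed within 1.5 times for a count, or for the overlap moved by less than 1 SD over the 4 pairs of libraries. Exact tests of 2 libraries against 2 cannot pass, so their p says nothing about stability. The share of sites with a neighbour reversed at 10 bases (-0.649 percentage points, against 3.11 at 50). It was 1.60 points at levels of at least 0.2. The difference of medians, 0.0029, was 0.0114 for sites in both libraries of a group, 0.0179 in the NT libraries and 0.00114 to 0.00465 without 1 library. Overlap between editors, 43.9% of the shorter list, was 40.8% at levels of at least 0.2, 51.5% for sites in both libraries of a group and 49.99% for positions within 50 bases. Sites differing in level were 2 when the 609 sites in all 8 libraries were tested in the 4 EZH2 libraries, 3 when those sites were tested with 8 libraries sharing the spread (chr22:35796553, adjusted p = 0.037; chr19:4657731 and chr19:19014207, 0.0384) and 2 in the NT libraries (chr16:57505169 and chr22:35796463), and 0 with the replicate block (109 at an unadjusted p under 0.05). The block gave 9 chromosomes. Leaving out 1 library gave 3 to 9 chromosomes, 1348 to 2986 sites of dCas13d-ADAR alone and 776 to 2137 of REPAIR.t1 alone, where fewer libraries are required to list or lack a site. It gave 1.21 to 1.22 for the ratio of site numbers, 0.0235 to 0.0345 for the difference of mean levels and 3.96 to 4.48 percentage points for chromosome 19. A library left alone was assumed to vary like the others. Unknown depth limits every count of sites. Counts of sites per gene were not run for want of an annotation.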

Other observations

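At chr16:57505169, a limma call between the editors with the NT guide (adjusted p = 0.0321), the NT levels were 0.312 and 0.269 in REPAIR.t1 and 0.657 and 0.733 in dCas13d-ADAR. With the EZH2 guides the levels were 0.538 and 0.607 in REPAIR.t1 and 0.538 and 0.517 in dCas13d-ADAR, so the editors overlapped there. Within 200 bases of chr22:35796553, the 8 dCas13d-ADAR and REPAIR.t1 libraries listed only 3 positions, that site included. The third, chr22:35796556, lay 3 bases after it and stood at 0.231 in 1 REPAIR.t1 EZH2_A22 library and at 0.464 and 0.227 in the dCas13d-ADAR EZH2 libraries. With the NT guide both dCas13d-ADAR libraries listed it, at 0.28 and 0.318, and neither REPAIR.t1 library did.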
